A study of Arabidopsis thaliana with 20 samples.

Results

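The comparison set 2 libraries of lhp1 seedlings against 2 libraries of wild-type seedlings, all 4 kept at 27 °C, out of 20 libraries in the series, and the libraries were chosen by the genotype and temperature in their titles. The wild type was the Arabidopsis thaliana accession Col-0 and the mutant carried the allele lhp1-3. Seedlings of every group grew on sucrose-containing medium in short days at 21 °C, and RNA came from whole seedlings 5 days old. The groups at 27 °C spent the last 4 h in warmth, in the middle of the short day (ZT 4 to 8, hours after dawn), whereas the labels do not give the hour of collection at 21 °C. Both genotypes of the comparison therefore shared the shift, and the contrast sets the lhp1 line against Col-0 in warmed seedlings. Pairs of groups that share no library with it were used beside it, namely lhp1 against wild type at 21 °C and the double mutant ein2-5 lhp1-3 against ein2-5 at 27 °C, with 2 libraries in each group. EIN2 is the membrane protein that carries the ethylene signal.

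LHP1 (LIKE HETEROCHROMATIN PROTEIN1, also called TFL2) is a chromodomain protein that binds histone H3 trimethylated at lysine 27, the mark set by polycomb repressive complex 2. The mark keeps developmental genes silent in tissues where they have no role, among them the MADS-box genes that give floral organs their identity and the genes of seed maturation. Seedlings without LHP1 are known to flower early and to carry curled leaves.

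Total counts were 36701642 and 30216474 in the wild-type libraries and 42625800 and 27865315 in the lhp1 libraries at 27 °C, and lay between 24153109 and 47566071 over the series. Between replicates, the ratio of variance to mean of genes with 20 to 100 counts was 2.93 in wild type and 2.87 in lhp1. The mates of a pair were counted singly, so part of this ratio comes from counting and not from spread between plants. The labels do not state whether replicates were separately grown plants, so the p-values measure only the spread between these libraries. Photosynthesis genes were among the most abundant, with CAB1 at 13672 to 13841 CPM (counts scaled to library size, as used throughout) in the 4 libraries, and the 6 root hair genes on a marker list summed to 141 to 157 CPM, so shoot and root were both present. Genes annotated as ribosomal RNA took 0.894% and 1.13% of counts in wild type and 1.59% and 1.98% in lhp1, and AT3G06365, a gene beside them, took 3.15% and 4.09% against 5.35% and 6.81%. The part of this shift in the results was not tested. Leaving out these genes and all organelle genes before scaling gave 2972 genes higher and 2886 lower, close to the counts below. That step concerns the scaling only and cannot show whether other genes shifted along with the ribosomal RNA.

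LHP1 itself was lower in the mutant. It stood at 15 and 14.2 CPM in wild type and at 8.09 and 6.71 CPM in lhp1, and the groups did not overlap. The log2 difference was -0.97 ± 0.13 (SE of the fit, n = 2 per group), with an adjusted p of 2.86e-09. Transcript therefore persisted in the mutant. At 21 °C the same difference was -0.29 (adjusted p 0.0774), and the change in the genotype effect between temperatures was -0.68 (adjusted p 0.00335).

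Across the genome, 5879 of 21987 genes tested (26.7%) differed between lhp1 and wild type at 27 °C at an adjusted p under 0.05 in edgeR's two-sided quasi-likelihood test. Of these, 3137 (14.3%) were higher in lhp1 and 2742 (12.5%) were lower. Most changes were small, with a median log2 change of 0.37 among the genes that rose and -0.35 among those that fell, and a median of 0.00 over all genes tested. A change of at least 1 log2 unit was called upward in 460 genes (2.09%) and downward in 161 (0.732%). Replicates did not overlap for 31.4% of genes with lhp1 higher and 30.1% with lhp1 lower.

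Many of the genes raised by at least 1 log2 unit were weakly expressed in wild type. Of the 460 genes raised by at least 1 log2 unit, 230 (50%) lay under 1 CPM in wild type at 21 °C, libraries the contrast did not use, against 14.5% of all genes tested. The median level of the raised genes there was 0.997 CPM, compared with 11 CPM over all genes tested. The 2677 genes raised by less than 1 log2 unit had a median of 38.1 CPM. Low genes can pass a size threshold more easily, since their fold changes vary more.

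Floral organ identity genes were among the increases. Of 13 floral MADS-box genes on the list, 9 passed the count filter, 8 rose and none fell, beside 14.3% and 12.5% of all genes tested. FUL, with 1.9 ± 1.6 log2 units, was not called (adjusted p 0.442 in edgeR's test). A gene at or near 0 in wild type could pass that filter only through mutant libraries, so the count describes these members and is no measure of how often floral genes respond. AGAMOUS (AG), which specifies stamens and carpels, had no count in either wild-type library and stood at 3.36 and 3.22 CPM in lhp1. Against a floor of 3 counts over the group, it was at least 82.2-fold higher (adjusted p 5.74e-14). The sepallata genes act as partners in every floral whorl. SEP3 went from 0.542 and 0.825 CPM to 34.2 and 32.8 CPM, a log2 change of 5.63 ± 0.18 (adjusted p 4.33e-40). SEP1 went from 0.0493 and 0.118 CPM to 4.32 and 5.58 CPM, a log2 change of 5.87 ± 0.45. SEP2 was at 0 in both wild-type libraries and at 1.15 and 1.36 CPM in lhp1, at least 30.6-fold higher. SEP4 was already expressed in wild type, at 3.33 and 3.06 CPM, and rose by 1.18 ± 0.19 log2 units to 7.54 and 6.91 CPM.

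The petal and stamen genes PISTILLATA (PI) and APETALA3 (AP3), whose proteins act as a dimer, rose together. PI went from 0.345 and 0.471 CPM to 12.2 and 10.3 CPM (4.79 ± 0.27 log2 units, adjusted p 4.84e-25). AP3 went from 0.197 and 0.0589 CPM to 1.92 and 1.33 CPM (3.59 ± 0.62 log2 units, adjusted p 3.01e-06). SHP1, a carpel and fruit gene, rose by 3.16 ± 0.61 log2 units, to 1.49 and 2.42 CPM. In each of the 8 genes called, every lhp1 library lay above every wild-type library, as in 31.4% of all genes tested. Genes already called with large changes mostly separate in this way, so the separation adds no support. The meristem identity gene AP1 and its relatives CAL, STK and SHP2 stayed under the count filter, with at most 0.531 CPM in any of the 4 libraries. The median over the 9 genes tested was 4.79, and it was the same with AG and SEP2 set to their bounds.

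**Figure D1:**
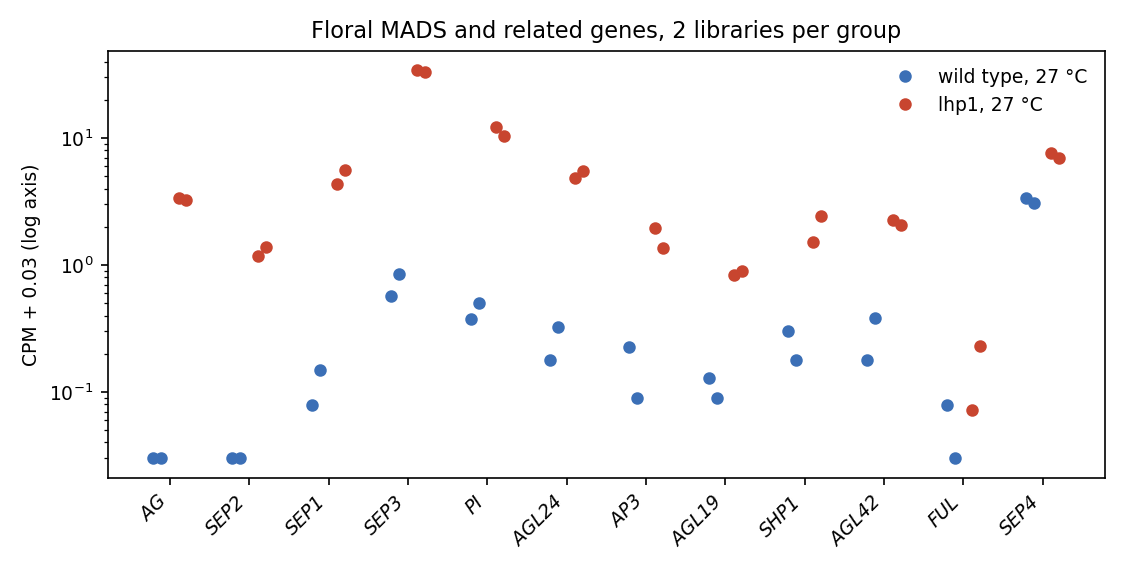
CPM plus 0.03 on a log axis for the 9 floral MADS-box genes tested and the related genes AGL24, AGL19 and AGL42, with a point for each of the 2 wild-type (blue) and 2 lhp1 (red) libraries at 27 °C. AG and SEP2 sit at 0 in wild type, SEP3 reaches 34.2 CPM in lhp1, and the groups overlap in FUL.

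Of 16 genes that time flowering tested (18 on the list), 3 rose and 3 fell, near the 14.3% and 12.5% of all genes tested. The median was -0.01. Those that rose were MADS-box genes that promote flowering. AGL24 went from 0.148 and 0.295 CPM to 4.77 and 5.45 CPM, a log2 change of 4.54 ± 0.37 (adjusted p 5.78e-17). AGL42 rose by 3.11 ± 0.52 log2 units to 2.24 and 2.03 CPM, and AGL19 by 3.32 ± 0.76 to 0.809 and 0.864 CPM. The florigen genes FT and TSF were under the count filter, with FT at 0 in all 4 libraries. SOC1, another promoter of flowering, was at 9.81 and 9.05 CPM against 11.3 and 9.0 CPM and was not called (adjusted p 0.52). The floral repressors FLM (-0.52 ± 0.097), MAF3 (-0.37 ± 0.13) and SMZ (-0.53 ± 0.15) fell, whereas FLC (0.44 ± 0.29) and SVP (-0.00 ± 0.065) were not called. The calls of MAF3 and SMZ were lost when some single libraries were left out, with values down to -0.29 for MAF3 without lhp1 replicate 1 and -0.45 for SMZ without lhp1 replicate 2. FLM differed by 0.08 at 21 °C, and the change between temperatures was called (-0.60, adjusted p 0.000281).

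Of 13 meristem and embryo regulators tested (15 on the list), none rose and KNAT1 fell, beside 14.3% and 12.5% of all genes tested. KNAT1 (BREVIPEDICELLUS), a homeobox gene of the stem, went from 35.5 and 34.2 CPM to 17.5 and 18.8 CPM, a log2 change of -0.95 ± 0.08 (adjusted p 2.16e-16). The stem cell gene WUS was at 0.0493 and 0.0589 CPM against 0.17 and 0.465 CPM, and was not called (adjusted p 0.0973). STM, which keeps the shoot meristem, differed by 0.17 ± 0.24. The embryo regulators LEC1 and LEC2 stayed under the filter and FUS3 had at most 0.0851 CPM. ABI3, a master regulator of seed maturation that seedlings also transcribe, was at 6.06 and 5.33 CPM against 6.45 and 8.44 CPM (0.36 ± 0.15, adjusted p 0.0709).

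Of 21 polycomb genes tested (23 on the list), 4 rose, LHP1 fell and 16 were not called, with a median of -0.03, while 26.7% of all genes tested were called in either direction. EMF1, a plant polycomb protein that works with LHP1, rose by 0.41 ± 0.1 log2 units to 21.6 and 23.2 CPM from 16.7 and 16.9 CPM. MSI1, a histone-binding subunit of polycomb repressive complex 2, rose by 0.23 ± 0.079, VRN1 by 0.21 ± 0.069 and VRN5 by 0.26 ± 0.096. The calls of MSI1 and VRN5 were lost without any one of the 4 libraries (0.22 to 0.25 and 0.22 to 0.29), and that of VRN1 without any but lhp1 replicate 1. The methyltransferases CLF (-0.09 ± 0.1) and SWN (-0.18 ± 0.093) and the demethylase REF6 (-0.03 ± 0.08) were not called. INO80 fell by 0.33 on the log2 scale (SE 0.074), from 47.4 and 46.4 CPM to 37.6 and 37.0 CPM, with an adjusted p of 0.00029. Among the 9 genes of the INO80 and SWR1 complexes and their histone H2A.Z, HTA9 (0.25 ± 0.049) and HTA11 (0.31 ± 0.071) rose, INO80 fell and 6 were not called. For HTA9 the log2 difference was -0.21 at 21 °C and the change between temperatures was 0.46 (adjusted p 9.41e-08). For HTA11 these values were -0.37 and 0.68 (adjusted p 4.63e-08).

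Genes of the mature seed were also among the increases. They encode storage proteins, oil body proteins and protectants that embryos make before drying, and seedlings normally switch them off. Of 17 on the list, 16 passed the filter, 12 rose and none fell, beside 14.3% and 12.5% of all genes tested. The median was 2.24, or 2.23 with CRU2 and SESA1 at the bound set by 3 counts. As with the floral genes, members at or near 0 in wild type could pass the filter only through libraries where they are high, so the count is a description. CRA1, a cruciferin storage protein, went from 0.69 and 0.825 CPM to 9.07 and 9.77 CPM, a log2 change of 3.63 ± 0.16 (adjusted p 2.27e-30). CRU3 went from 0.148 and 0.0589 CPM to 3.41 and 4.19 CPM (5.08 ± 0.31). The oleosins coat oil bodies, and OLEO2 went from 3.45 and 2.65 CPM to 16 and 16.4 CPM (2.39 ± 0.1) and OLEO1 from 1.28 and 0.913 CPM to 4.43 and 5.18 CPM (2.09 ± 0.17). The protectants EM1 (3.20 ± 0.23) and EM6 (0.72 ± 0.11) and the peroxiredoxin PER1 (1.17 ± 0.081) rose as well. SESA2, SESA4, CLO1 and DOG1 were not called. The list summed to 27.5 and 22.5 CPM in wild type and 71.1 and 74.1 CPM in lhp1. In whole seedlings, fewer or more cells of a type and less or more RNA per cell cannot be told apart.

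The seed genes of lhp1 were further from wild type at 21 °C than at 27 °C. The list summed to 25.7 and 24.9 CPM in wild type and to 477 and 479 CPM in lhp1 at 21 °C, where 15 of 16 members rose with a median of 4.53, beside 12.6% of all genes tested. The genotype effect was smaller at 27 °C than at 21 °C, by a called difference, in 12 of the 16 genes, against 8.25% of all genes tested. CRU3 stood at 118.0 and 117.0 CPM in lhp1 at 21 °C, and its effect changed by -5.0 log2 units between temperatures (adjusted p 5.4e-06). For CRA1, at 144.0 and 147.0 CPM in lhp1 at 21 °C, the change was -3.93 (adjusted p 1.9e-16). DOG1, SESA4 and CRU2 had no called change between temperatures, and in SESA1, at 0 in wild type at both temperatures, the adjusted p was 1. In the ein2 background at 27 °C the list summed to 373 and 382 CPM in the single mutant ein2 and to 933 and 903 CPM in the double mutant. At 21 °C it summed to 534 and 548 CPM in ein2 and to 535 and 556 CPM in the double mutant. The change between temperatures was not tested in that background.

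**Figure D2:**
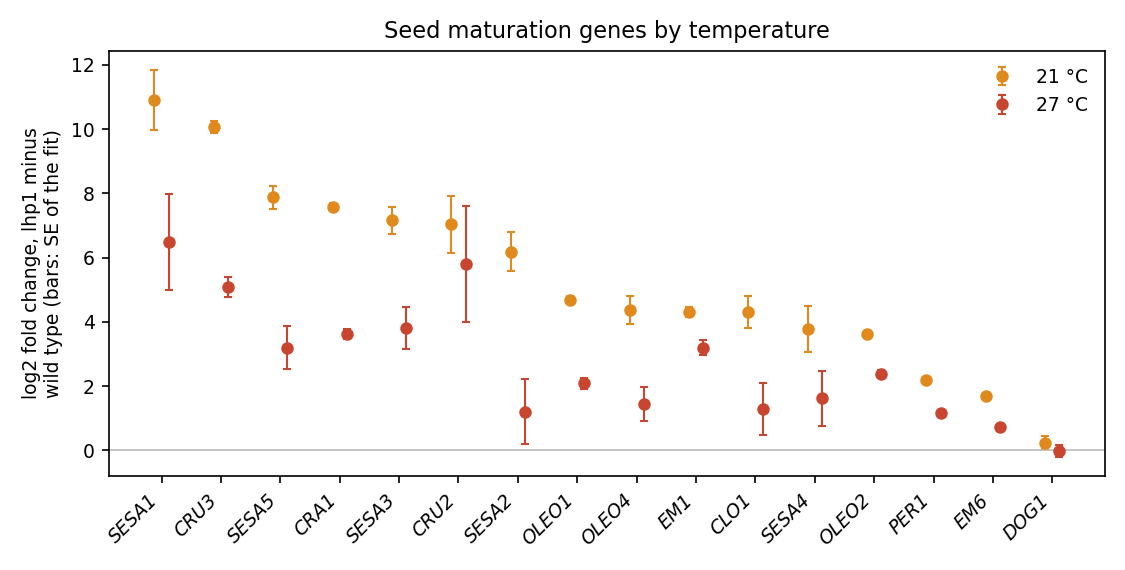
Log2 fold change of lhp1 over wild type (vertical axis, bars are the SE of the fit) for the 16 seed maturation genes tested, at 21 °C (orange) and 27 °C (red). Each gene has its lower value at 27 °C, from CRU3 (10.07 and 5.08) to DOG1 (0.24 and -0.01). SESA1 and CRU2 had no counts in wild type at 27 °C, and their fitted values there are no measure of size.

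The start regions of raised genes were scanned for the G-box CACGTG, bound by bZIP and bHLH factors, and for ACGTGGC, the core of the abscisic acid response element. The motifs overlap, since CACGTGGC holds both, and either strand was counted in the 250 bases before the annotated start. CACGTG was present in 16.9% of 415 nuclear genes raised by at least 1 log2 unit, 7.45% of 161 lowered genes and 7.41% of all 21861 nuclear genes scanned. ACGTGGC was present in 9.16%, 2.48% and 3.85%. Either motif was held by 83 of the raised genes (20%) and 25 (6.02%) held both, against 9.14% and 2.11% of all. Over all genes called, of any size, the shares with either motif were 10.7% of those higher and 10.8% of those lower, and with both 3.01% and 3.22%. GGCCCA, a sequence common in promoters of housekeeping genes, was present in 13.5% of raised, 4.97% of lowered and 15.7% of all. AAACCCT, the telobox core, was present in 7.47% of raised and 6.5% of all, and GAGAGAGA, a GAGA repeat, in 5.3% and 4.65%. These shares were not tested, and a match is not a site of binding. Of the 16 seed maturation genes, 9 held either G-box or response element, as did none of the 9 floral genes. The clock list, with a median change of -0.08, held either motif in 8 of 16 genes, the flavonoid list in 5 of 12, the abscisic acid list in 5 of 16 and the photosynthesis list in 5 of 19. The regions below are read 5′ to 3′ on the gene's strand from the RefSeq TAIR10.1 sequence, with the G-box, the response element core and GGCCCA, on either strand, in capitals. They were chosen to show what a match looks like, in 4 of the 9 seed genes with one and in ABI5, a bZIP factor of the abscisic acid response. The other 7 seed genes held neither, and SEP3 is shown as a region with none of the motifs.
OLEO1 (chr4:12900180-12900429, plus strand): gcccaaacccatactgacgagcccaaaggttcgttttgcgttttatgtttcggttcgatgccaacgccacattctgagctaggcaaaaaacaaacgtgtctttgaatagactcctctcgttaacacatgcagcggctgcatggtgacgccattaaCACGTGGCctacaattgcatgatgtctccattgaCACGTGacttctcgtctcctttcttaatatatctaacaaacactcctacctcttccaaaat
EM6 (chr2:16780369-16780618, minus strand): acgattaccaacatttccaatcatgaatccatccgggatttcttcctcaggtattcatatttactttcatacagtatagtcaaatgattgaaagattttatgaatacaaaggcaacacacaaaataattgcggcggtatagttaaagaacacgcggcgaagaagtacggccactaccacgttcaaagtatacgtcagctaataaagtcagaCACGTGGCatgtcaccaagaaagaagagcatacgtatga
PER1 (chr1:17780179-17780428, plus strand): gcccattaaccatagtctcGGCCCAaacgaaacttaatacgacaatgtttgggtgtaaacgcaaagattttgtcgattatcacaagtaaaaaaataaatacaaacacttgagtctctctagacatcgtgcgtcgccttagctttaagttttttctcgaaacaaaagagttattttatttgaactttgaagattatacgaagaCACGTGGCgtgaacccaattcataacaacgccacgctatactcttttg
CRU3 (chr4:14087306-14087555, plus strand): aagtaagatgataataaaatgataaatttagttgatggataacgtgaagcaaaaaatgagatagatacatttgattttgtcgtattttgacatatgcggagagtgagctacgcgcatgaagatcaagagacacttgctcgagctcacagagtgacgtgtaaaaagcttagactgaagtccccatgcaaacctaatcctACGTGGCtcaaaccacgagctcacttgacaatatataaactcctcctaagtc
ABI5 (chr2:15207637-15207886, minus strand): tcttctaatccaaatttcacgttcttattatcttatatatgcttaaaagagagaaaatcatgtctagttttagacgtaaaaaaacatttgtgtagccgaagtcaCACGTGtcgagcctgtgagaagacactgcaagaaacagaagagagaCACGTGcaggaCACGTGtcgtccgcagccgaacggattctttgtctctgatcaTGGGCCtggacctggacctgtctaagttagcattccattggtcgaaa
SEP3 (chr1:8596124-8596373, minus strand): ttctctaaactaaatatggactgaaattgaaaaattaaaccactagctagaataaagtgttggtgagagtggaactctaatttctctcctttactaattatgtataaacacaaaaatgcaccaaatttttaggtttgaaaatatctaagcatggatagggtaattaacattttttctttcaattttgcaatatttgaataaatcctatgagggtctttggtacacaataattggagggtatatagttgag

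The 5 genes with the smallest p-values among the increases were ICL, LTP2, AT3G02480, AT3G15670 and MLS. ICL, isocitrate lyase of the glyoxylate cycle, went from 312 and 298 CPM to 1311 and 1305 CPM, a log2 change of 2.1 ± 0.028 (adjusted p 1.08e-63). MLS, malate synthase of the same cycle, went from 76.3 and 76.1 CPM to 241 and 239 CPM (1.66 ± 0.043, adjusted p 5.11e-45). LTP2, a lipid transfer protein, went from 772 and 757 CPM to 1860 and 1937 CPM (1.31 ± 0.027, adjusted p 1.01e-51). The late embryogenesis abundant family members AT3G02480 (1.96 ± 0.04) and AT3G15670 (2.28 ± 0.058) rose as well. AT3G02480 stood at 44.3 and 43.8 CPM in wild type and 173 and 169 CPM in lhp1. The effect on ICL was the same size at 21 °C (2.07), with a change between temperatures of 0.03 (adjusted p 0.702), whereas 12 of the seed genes above had a called one.

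Of 16 abscisic acid genes tested, 5 rose, 5 fell and 6 were not called, beside 14.3% of all genes tested called higher and 12.5% lower. The median was 0.14. ABI5 went from 2.81 and 2.36 CPM to 7.32 and 7.01 CPM (1.47 ± 0.16, adjusted p 9.49e-12). NCED3, the enzyme that limits abscisic acid synthesis, went from 7.59 and 6.13 CPM to 16.2 and 14.1 CPM (1.14 ± 0.13). RAB18, a dehydrin, rose by 1.34 ± 0.071, COR15A by 0.75 ± 0.12 and the NAC factor RD26 by 0.34 ± 0.1. RD26 was not called without lhp1 replicate 1 (0.29) or wild-type replicate 2 (0.21). The phosphatases that restrain the pathway fell or were not called. HAI2 fell by 1.08 on the log2 scale, from 4.39 and 3.65 CPM to 2.0 and 1.79 CPM (adjusted p 9.76e-06), and HAI1 by 0.45 (not called without lhp1 replicate 2, at -0.25, or wild-type replicate 2, at -0.36), while ABI1, ABI2 and HAB1 were not called. ABF3 (-0.37), RD29A (-0.42) and RD29B (-0.18, and -0.14 and not called without wild-type replicate 2) also fell. For RD29B the effect was 0.84 at 21 °C, and the change between temperatures was -1.03 (adjusted p 6.59e-21).

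Of 19 nuclear genes of photosynthesis tested, 17 fell, RBCS1A rose and CAB1 was not called. Over all genes tested, 12.5% were called lower and 14.3% higher. The median of the 19 was -0.29, with a range of -0.61 to 0.16. The members encode the antenna proteins that bind chlorophyll, the small subunit of Rubisco, an oxygen-evolving protein and the GLK factors that activate them. Copies of the CAB and RBCS genes are nearly identical, so reads may have been divided unevenly among them. LHCA1 went from 6129 and 6139 CPM to 4384 and 4419 CPM, a log2 change of -0.48 ± 0.018 (adjusted p 1.17e-35). GLK1 went from 108 and 100 CPM to 69.2 and 67.9 CPM (-0.61 ± 0.049), and GLK2 from 188 and 190 CPM to 170 and 177 CPM (-0.13 ± 0.04). GLK2 was not called without lhp1 replicate 1 (-0.10) or wild-type replicate 2 (-0.12). LHCB2.3 (-0.99 ± 0.026), the carbonic anhydrase CA1 (-0.77 ± 0.021) and LHB1B1 (-0.80 ± 0.022) had the smallest p-values among the decreases. CA1 stood at 4184 and 4145 CPM in wild type and 2425 and 2463 CPM in lhp1.

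The photosynthesis genes went the other way in the ein2 background. There, 18 of the 19 genes were higher in ein2 lhp1 than in ein2 and RBCS1B was lower, with a median of 0.57. Over all genes tested, 19.1% were called higher and 18.3% lower there. The difference between the backgrounds was called downward in 18 genes and upward in RBCS1B, against 13% and 14.2% of all genes tested. LHCB2.3 changed by -0.99 with EIN2 and 1.00 without it, and the difference was -2.0 (adjusted p 9.99e-55). At 21 °C, with EIN2, 18 of 19 fell, with a median of -0.55, beside 15.7% of all genes tested. The split in the ein2 background was 18 against 1 under every other scaling and filter tried, also with ribosomal RNA region and organelle genes left out. At 27 °C, genes annotated as ribosomal RNA took 1.26% and 1.05% of counts in ein2 and 2.80% and 3.05% in ein2 lhp1. Leaving them out concerns the scaling only, and the part of this shift in the split was not tested.

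Genes encoded in the chloroplast moved the other way. Of 115 tested, 78 were higher in lhp1 at 27 °C (67.8%, beside 14.3% of all genes tested), 5 were lower and the median was 0.89. They held 42 of the 460 genes raised by at least 1 log2 unit, which is 36.5% of chloroplast genes tested, while the share on the 5 nuclear chromosomes was 1.79% to 2.05%. ATCG01100 went from 18.1 and 13.5 CPM to 78.9 and 80.3 CPM (2.32 ± 0.097, adjusted p 2.22e-32). At 21 °C, 39 of the 115 were higher (33.9%, beside 12.6% of all genes tested), with a median of 0.18, and the genotype effect was larger at 27 °C by a called difference in 60 genes, or 52.2%, beside 12.4% of all genes tested. In the ein2 background 94 were higher (81.7%, beside 19.1% of all genes tested), with a median of 1.98. Of 10 mitochondrial genes tested, 6 were higher at 27 °C (60%, beside 14.3%). The libraries were made by poly(A) selection, and chloroplast transcripts are recovered there as a small fraction, since most carry no poly(A) tail. The summed chloroplast level was 8820 and 8567 CPM in wild type and 10621 and 10608 CPM in lhp1. The share of ribosomal RNA genes, given above for 27 °C and for the ein2 background, moved in the same direction in both. At 21 °C this share was 1.79% and 1.84% in wild type and 2.54% and 2.63% in lhp1. Its part in the chloroplast results of these comparisons was not tested.

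**Figure D3:**
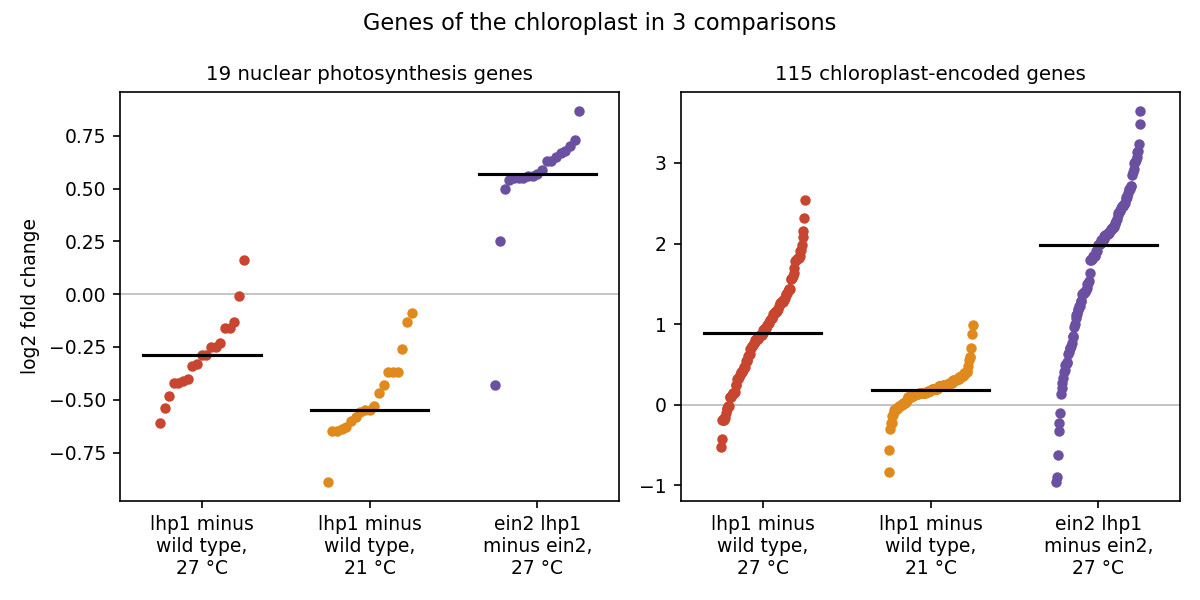
Log2 fold change of each of 19 nuclear photosynthesis genes (left) and 115 chloroplast-encoded genes (right) in lhp1 over wild type at 27 °C (red), at 21 °C (orange) and in ein2 lhp1 over ein2 at 27 °C (purple). Points are genes in rising order and black lines are medians, which are -0.29, -0.55 and 0.57 on the left and 0.89, 0.18 and 1.98 on the right.

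Of 29 genes of warm growth and auxin tested, 11 fell, none rose and 18 were not called, beside 12.5% of all genes tested called lower and 14.3% higher. The median was -0.35. PIF4, the bHLH factor that drives elongation in warmth, went from 101 and 98.4 CPM to 71.6 and 79 CPM, a log2 change of -0.41 ± 0.049 (adjusted p 1.32e-10). PIF7, a thermosensory relative, went from 20.7 and 21.9 CPM to 13.3 and 14.6 CPM (-0.62 ± 0.091). The cell wall loosening expansin EXPA8 went from 190 and 177 CPM to 93.4 and 95.3 CPM (-0.96 ± 0.044, adjusted p 6.61e-30). The auxin response gene IAA29 went from 5.4 and 5.63 CPM to 2.6 and 2.19 CPM (-1.19 ± 0.19), and IAA19 (-0.39 ± 0.12) and the brassinosteroid enzyme DWF4 (-0.38 ± 0.11) also fell. IAA19 was called only without wild-type replicate 2 among the fits that left out a library, with -0.40 to -0.30 in the other fits. DWF4 was not called without lhp1 replicate 1 (-0.35) or wild-type replicate 2 (-0.23). Of 6 small auxin up RNA genes in the SAUR19 group, 5 fell, by 0.45 to 0.84 on the log2 scale; they are near-identical copies and their separate values are uncertain. The auxin synthesis genes YUC8 (-0.14 ± 0.14) and TAA1 (-0.01 ± 0.12) and PIF5, a relative of PIF4, (-0.03 ± 0.048) were not called. PIF4 differed by 0.17 at 21 °C and by 0.29 in the ein2 background, and both differences from the effect at 27 °C were called (-0.57, adjusted p 3.58e-10, and -0.70, adjusted p 2.27e-13).

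Of 17 heat response genes tested (18 on the list), 6 rose, 2 fell and 9 were not called, beside 14.3% of all genes tested called higher and 12.5% lower. The median was 0.12. HSP90.1 went from 57.0 and 57.1 CPM to 73.7 and 80.1 CPM (0.43 ± 0.067, adjusted p 2.88e-07), and HSP70 (AT3G12580) from 203 and 195 CPM to 232 and 221 CPM (0.19 ± 0.04). The small heat shock protein genes HSP17.6A (1.05 ± 0.26), HSP17.6II (0.55 ± 0.15) and HSP23.6-MITO (0.87 ± 0.25) rose. HSP17.6II was not called without lhp1 replicate 1 (0.49) or wild-type replicate 2 (0.51), nor HSP23.6-MITO without lhp1 replicate 1 (0.77) or wild-type replicate 1 (0.61). MBF1C, a coactivator of heat response, fell by 0.38 on the log2 scale from 26.5 and 25 CPM to 19.0 and 20.7 CPM, and HSFA7A by 0.48. Neither decrease was called without lhp1 replicate 1 (-0.32 and -0.61) or without wild-type replicate 1 (-0.34 and -0.32), nor that of HSFA7A without lhp1 replicate 2 (-0.39). HSFA2, HSP101 and HSP18.2 were not called. In the ein2 background HSP17.6II was lower by 2.98 on the log2 scale, and the difference between backgrounds was 3.52 (adjusted p 1.92e-22).

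Of 12 flavonoid and anthocyanin genes tested (14 on the list), 7 rose, none fell and 5 were not called. Over all genes tested, 14.3% were called higher and 12.5% lower. The median of the 12 was 0.57. DFR, an enzyme of the late, anthocyanin-specific steps, went from 3.16 and 3.12 CPM to 10.4 and 11.4 CPM, a log2 change of 1.79 ± 0.13 (adjusted p 3.27e-19). The later enzymes LDOX, from 3.85 and 3.54 CPM to 8.39 and 10.4 CPM (1.33 ± 0.13), and UF3GT, from 1.33 and 1.3 CPM to 4.43 and 4.52 CPM (1.76 ± 0.22), rose likewise. Chalcone synthase TT4 (0.52 ± 0.035), the first enzyme, TT7 (0.77 ± 0.15), FLS1 (0.33 ± 0.067) and the MYB activator PAP1 (0.95 ± 0.24) also rose. PAP1 was not called without lhp1 replicate 1 (0.42) or wild-type replicate 1 (0.70). TT8, the bHLH partner of PAP1, was at 0.69 and 1.53 CPM against 1.11 and 2.39 CPM and was not called (adjusted p 0.199). At 21 °C the median was -0.02, and the effect was larger at 27 °C by a called difference in 6 genes, beside 12.4% of all genes tested. DFR stood in wild type at 13.3 CPM at 21 °C and 3.14 CPM at 27 °C, compared with 19.1 and 10.9 CPM in lhp1 (means, n = 2). In the ein2 background the median was -0.17, and 8 genes had a called upward difference between backgrounds, beside 14.2% of all genes tested.

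Of 16 clock genes tested, 4 rose and 6 fell, beside 14.3% of all genes tested called higher and 12.5% lower. The median was -0.08, and without lhp1 replicate 1 or wild-type replicate 2 only 1 was called higher. The morning gene LHY went from 2.42 and 2.95 CPM to 5.15 and 5.05 CPM (0.93 ± 0.17), while its close relative CCA1 went from 31.3 and 30.7 CPM to 22.9 and 24.1 CPM (-0.40 ± 0.077, adjusted p 2.24e-05). PRR5, LUX and RVE1 rose, by 0.21 to 0.27, and none of them was called without lhp1 replicate 1 (0.24, 0.09 and 0.19) or without wild-type replicate 2 (0.24, 0.14 and 0.21). RVE1 was also not called without lhp1 replicate 2 (0.30) or wild-type replicate 1 (0.29). ELF3, a thermosensor of the evening complex, fell by 0.39 on the log2 scale from 52.7 and 47.9 CPM to 40.2 and 36.5 CPM, and PRR7 and PRR9 fell as well, PRR9 with no call without wild-type replicate 2 (-0.23).

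Of 16 ethylene genes tested (17 on the list), 2 rose and 2 fell, a share close to the 26.7% of all genes tested. With the gene length trend removed, 4 were called higher, and without lhp1 replicate 1 or wild-type replicate 2, 1 was. EBF1, an F-box protein that removes EIN3, rose by 0.32 ± 0.056. The kinase gene CTR1 (-0.28 ± 0.074) and ARGOS (-0.64 ± 0.16) fell. EIN2 (-0.10 ± 0.059), EIN3 (0.11 ± 0.051) and EIL1 (-0.10 ± 0.062) were not called, and the median was -0.00. Of 9 salicylic acid genes tested (12 on the list), 2 fell and none rose, with a median of -0.08. ICS1, which makes salicylic acid, went from 14.8 and 17.2 CPM to 9.66 and 8.97 CPM (-0.77 ± 0.12), and EDS1, an immune regulator, fell by 0.50 on the log2 scale. Of 8 jasmonate genes tested (10 on the list), 2 rose and 3 fell, with a median of 0.04. The shares of all genes tested were 14.3% higher and 12.5% lower. The synthesis genes LOX2, from 43.6 and 40.0 CPM to 20.1 and 22.9 CPM (-0.97 ± 0.061), LOX3 (-1.03 ± 0.17) and AOS (-0.47 ± 0.057) fell. The storage proteins VSP1 (1.18 ± 0.1) and VSP2 (0.73 ± 0.078), often used as reporters of jasmonate, rose.

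Of 13 glucosinolate genes, 3 rose and 3 fell, beside 14.3% of all genes tested called higher and 12.5% lower. The median was 0.02. MAM1, which extends the side chain of aliphatic glucosinolates, went from 29.0 and 26.6 CPM to 16.4 and 15.9 CPM (-0.78 ± 0.1). The myrosinase TGG1, which breaks glucosinolates down, fell from 521 and 522 CPM to 354 and 348 CPM (-0.57 ± 0.029), whereas its relative TGG2 rose from 27.2 and 22 CPM to 38.9 and 42.2 CPM (0.71 ± 0.071). CYP79F2 (-0.38) also fell, and MYB29 (0.57) and CYP79B3 (0.22) rose. CYP79F2 was called in 1 of the 4 fits that left out a library, that without lhp1 replicate 2, with -0.41 to -0.20 in the others. MYB29 was not called without lhp1 replicate 2 (0.52) or wild-type replicate 1 (0.49). ESP, an epithiospecifier protein that steers the breakdown products, was not on the list and fell from 7.05 and 6.78 CPM to 1.06 and 0.731 CPM (-2.89 ± 0.19, adjusted p 2.3e-21). Of the 6 root hair genes, none was called, with a median of 0.07.

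**Figure D4:**
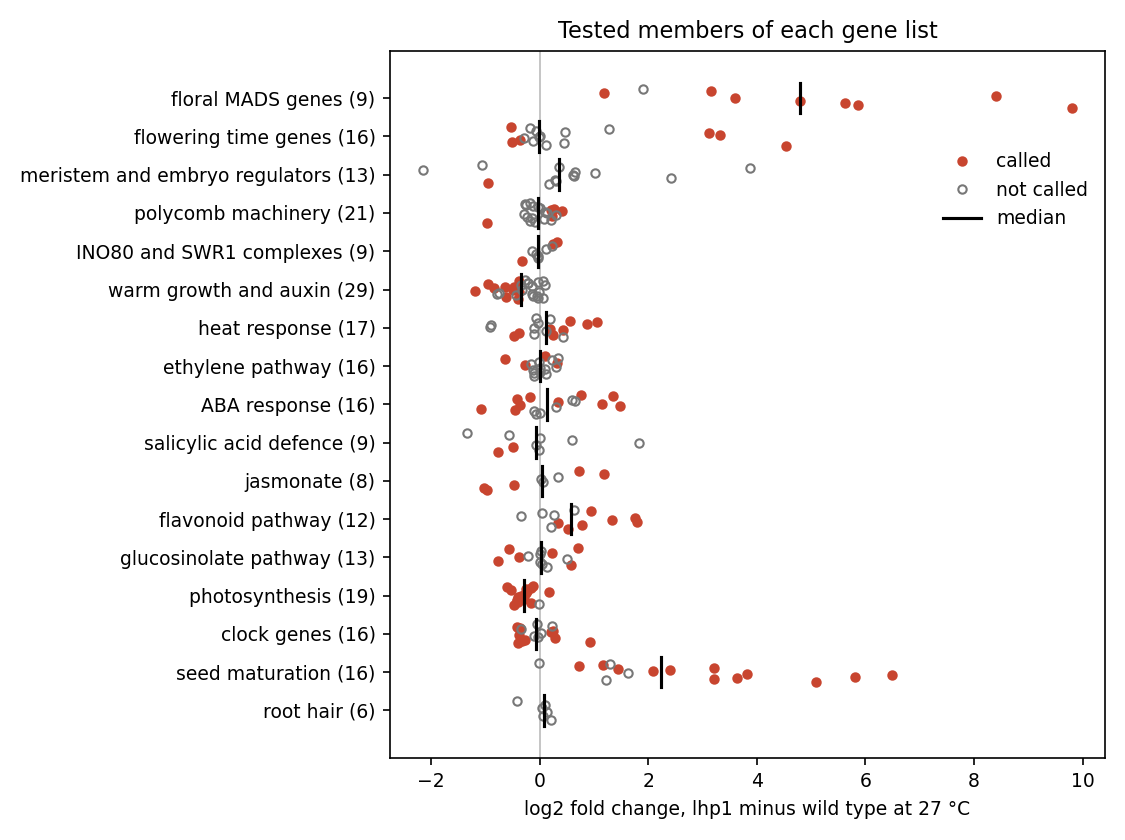
Log2 fold change of lhp1 over wild type at 27 °C (horizontal axis) for every tested member of 17 gene lists, whose number is in brackets. Filled red points were called at an adjusted p under 0.05, open grey points were not, and black lines are list medians, which run from -0.35 for warm growth and auxin to 4.79 for floral MADS genes. Fitted values of genes with no counts in wild type, such as AG, are no measure of size.

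Beyond the lists, the 15 largest increases held 4 floral MADS genes (AG, SEP1, SEP3 and PI), AGL24 and the storage protein gene CRU3. AT4G05475 and AT4G05470, RNI-like (leucine-rich repeat) family genes on chromosome 4, lay next to each other among the genes tested. AT4G05475 went from 0 and 0.0589 CPM to 13.2 and 16.1 CPM, and AT4G05470 from 0.247 and 0.118 CPM to 7.19 and 6.78 CPM. Together with AT4G05497 they formed a run of 3 raised genes between positions 2763211 and 2778839, with no other tested gene between them. Their log2 changes were 3.03 to 8.90. AT1G68250, an uncharacterised protein gene, went from 0.0493 and 0.0589 CPM to 19.5 and 21.9 CPM (8.48 ± 0.22). The remaining members were the F-box genes AT1G66320 and AT3G47030, the cystatin-like AT1G03710, the RNA-binding gene MCT1, the phosphoglycerate mutase gene AT3G05170 and the cupin gene AT2G28490. AT3G05170 stood at 0.197 and 0.236 CPM in wild type and 4.9 and 5.78 CPM in lhp1, but at 4.14 CPM in ein2 and, with lhp1 added, at 4.19 CPM, a difference between backgrounds of 4.61 (adjusted p 4.09e-15). With genes under the count filter skipped, 89 of the 460 raised genes (19.3%) lay in 35 runs of 2 or more neighbours. Of these, 35 genes in 9 runs, the longest with 8 genes, were of the chloroplast genome, and 54 of the 415 raised nuclear genes (13%) lay in 26 runs. Of the 161 lowered genes, 10 (6.21%) lay in 5 runs of 2, and the shares were not tested against each other.

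The genes that fell furthest included pseudogenes and uncharacterised genes. Of 161 genes lowered by at least 1 log2 unit, 14 (8.7%) were pseudogenes, against 0.823% of all genes tested and 1.52% of those raised. AT2G05660, an uncharacterised gene, stood at 6.16 and 6.57 CPM in wild type and at 0 in both lhp1 libraries, at least 163-fold lower (adjusted p 1.48e-19 in edgeR's test and 0.0651 in DESeq2's). AT5G15360 went from 6.95 and 8.55 CPM to 0.0639 and 0 CPM (-7.51 ± 0.5), AT5G35935 from 16 and 17.7 CPM to 0.255 and 0.0664 CPM (-6.51 ± 0.23), and the thionin gene AT1G66100 from 7.99 and 7.78 CPM to 0.213 and 0.332 CPM (-4.90 ± 0.24). QQS, a gene that regulates starch, went from 4.24 and 3.83 CPM to 0.213 and 0.133 CPM (-4.46 ± 0.43). The noncoding AT3G05955 and the SADHU retroelement SADHU3-2 fell by 4.58 and 2.27 on the log2 scale.

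AT2G05660, QQS, AT5G35935 and AT1G66100 were not called lower in ein2 lhp1 relative to ein2. AT2G05660 was also at 0 CPM in ein2 and, with lhp1 added, at 0.0478 CPM, and QQS at 0.159 and 0.216 CPM there (means, n = 2). AT5G35935, nearly silent in lhp1 at both temperatures, stood at 16.9 CPM in ein2 and, with lhp1 added, at 18.1 CPM. The single and the double mutant carry the same lhp1-3 allele, and the cause was not tested. The difference between backgrounds was -6.61 (adjusted p 2.23e-32). AT1G66100 likewise stood at 6.7 and 9.98 CPM, with a difference of -5.48 (adjusted p 6.8e-27). ESP was lower there too, at 17.5 and 11.7 CPM (-0.58), with a difference between backgrounds of -2.31. Each genotype is represented by a single line, so the allele and any other difference of that line from Col-0 cannot be told apart. Around LHP1 itself on chromosome 5, 6 of 488 genes within 1 Mb were raised by at least 1 log2 unit and 3 lowered, shares of 1.23% and 0.615%, beside 2.09% and 0.732% of all genes tested.

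The calls were set beside comparisons that share no library with them. Of the 460 genes raised by at least 1 log2 unit, 225 passed the same limit upward at 21 °C. They were 48.9% of the list at 27 °C and 48.1% of the 468 at 21 °C. In the ein2 background 218 passed it, 47.4% of the 460 and 29.5% of the 739 there. In all 3 comparisons 144 passed it (31.3% of the 460), AG, SEP1, SEP3 and PI among them. Of the 161 lowered genes, 54 passed the same limit downward at 21 °C (33.5%, and 26.9% of the 201 there). In the ein2 background 21 did (13%, and 5.29% of 397), and 11 did in all 3 (6.83%). Over all calls of any size, 1083 of the 3137 higher genes (34.5%) were called higher at 21 °C and 612 (19.5%) lower, and 1194 of the 2742 lower genes (43.5%) were called lower and 144 (5.25%) higher. In the ein2 background, 1377 of the higher genes (43.9%) were called higher and 491 (15.7%) lower, and 890 of the lower genes (32.5%) were called lower and 610 (22.2%) higher. Over all genes tested, calls of any size were 12.6% higher and 15.7% lower at 21 °C. In the ein2 background they were 19.1% higher and 18.3% lower. The background rates of calls of at least 1 log2 unit were 2.13% and 0.914% at 21 °C and 3.36% and 1.81% in the ein2 background. Whether these shares differ between raised and lowered genes was not tested.

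**Figure D5:**
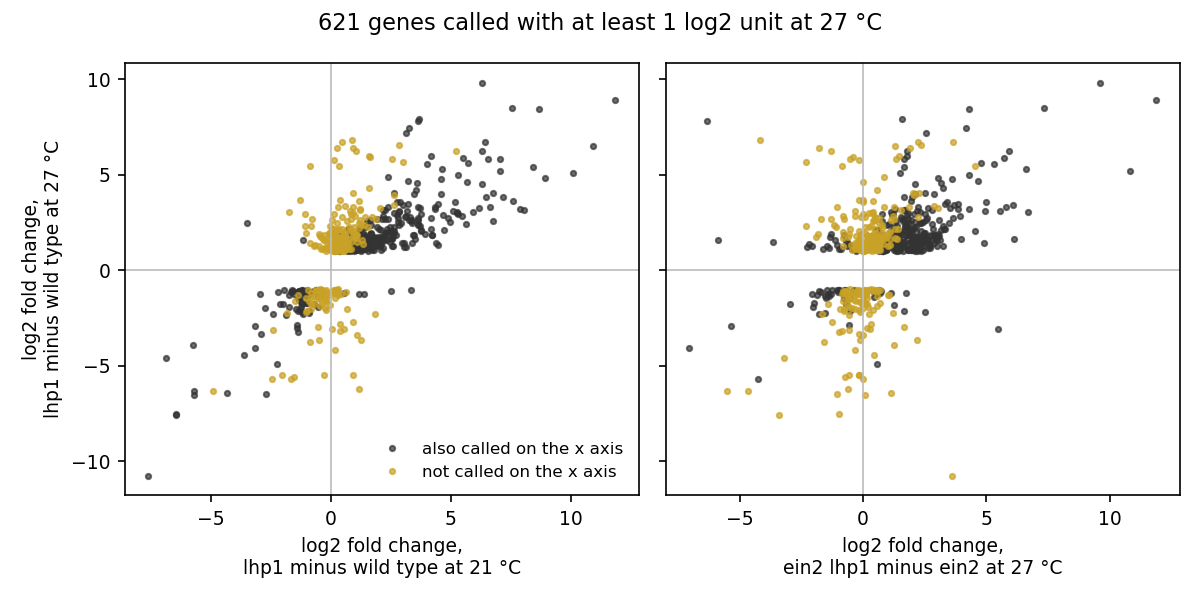
Log2 fold change of the 460 raised and 161 lowered genes called with at least 1 log2 unit at 27 °C (vertical axis, lhp1 over wild type) against lhp1 over wild type at 21 °C (left) and ein2 lhp1 over ein2 at 27 °C (right). Black points were also called on the horizontal axis and yellow ones were not, and fitted values of genes with no counts in a group are no measure of size. Raised genes lie mostly to the right of 0 in both panels (422 and 381 of 460), and lowered genes to the left (128 and 105 of 161).

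The effect of lhp1 differed between temperatures in 4537 genes (20.6% of those tested), 2724 with the larger or more positive value at 27 °C. Of the 460 raised genes, 103 had a called difference upward and 47 downward. Of the 161 lowered genes, 46 had one downward and 2 upward. Over all genes tested, 12.4% had one upward and 8.25% downward. The raised and lowered genes were chosen by their effect at 27 °C, which is also a term of the difference. Selection alone thus pulls these counts toward a larger effect at 27 °C, and no conclusion is drawn from them. Among genes called for this difference with at least 2 CPM in 1 of the 4 groups, the largest upward one was in PGAZAT, a polygalacturonase of cell separation, at 5.96. It was lower in lhp1 at 21 °C, with 0.715 against 8.23 CPM (means, n = 2), and higher at 27 °C, from 0.838 and 1.0 CPM to 5.41 and 4.72 CPM (2.46 ± 0.32). NAS3, a nicotianamine synthase of metal transport, crossed in the same way, with -1.15 at 21 °C and 1.57 ± 0.32 at 27 °C. The chloroplast gene ATCG01100 (2.33), GLYI7 (2.24) and the SAUR-like AT2G21220 (2.18) followed within the same limit. The largest downward differences within it were in AT2G05580, a glycine-rich protein gene, AT5G55410, a lipid-transfer and storage albumin family gene, and the storage protein genes CRU3, SESA2 and SESA5, with values of -5.86 to -4.68. Between EIN2 backgrounds, 5984 genes differed in the effect (27.2%).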

How the data were processed

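The deposited count tables held whole-number counts per gene for 36799 genes and transposons in 20 libraries of poly(A) RNA, made by the authors with featureCounts on the Araport11 annotation, per the file headers. No strand option was set and the mates of a pair were counted singly, so a gene and its antisense partner cannot be told apart and counts overstate independent fragments. The submitters' processing notes name FastQC, Trim Galore, STAR, Subread 2.0.1, DESeq2 and the build TAIR10. Column names give 22 and 28 where the sample titles give 21 and 27, and the titles were followed. The deposited DESeq2 tables compare temperatures within a genotype and were not used.

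All 20 libraries were fitted together in edgeR 4.0.16 under R 4.3.3, with TMM scaling, 1 mean per group and the filterByExpr function, which kept 21987 genes. The quasi-likelihood test was two-sided with Benjamini-Hochberg adjustment over all of them, and calls required an adjusted p under 0.05. The fit had 10 residual degrees of freedom and a prior of 59.6. Errors after ± are SEs of the fit, and CPM uses TMM library sizes. Where a group had 0 counts, folds are bounds against 3 counts over the group. The code was tested on simulated data. The members and the 17 lists were chosen with earlier results of these data known. Genes outside lists were named by size (the 15 largest changes each way among called genes with at least 2 CPM in the higher group and replicates apart), by the 5 smallest p-values each way, and by the 5 largest and smallest temperature differences among genes called for one with at least 2 CPM in 1 of the 4 groups. ESP and the SAUR-like and GLYI7 genes fall under these rules. The 250 bases before each start were read from the RefSeq TAIR10.1 genome. Replicate numbers of the same value did not deviate together, with correlations of -0.0178 to 0.0153 between groups, so libraries were not paired. DESeq2 1.42.0 served as an alternative test. List members are named in part, and 1 result is not reported here.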

Additional observations from a re-analysis of the deposited data

Results flagged for a closer look

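The following effects of lhp1 differed between temperatures or between EIN2 backgrounds by a called difference of the effects, tested in edgeR's quasi-likelihood fit with Benjamini-Hochberg adjustment. All values are differences of log2 fold changes, with the effect at 27 °C in the EIN2 wild type taken as the first term. Between temperatures, the effect was smaller at 27 °C in the seed genes CRU3 (-5.0), SESA5 (-4.68) and CRA1 (-3.93) and in the glycine-rich protein gene AT2G05580 (-5.86). Downward differences of less than that were found in RD29B (-1.03), LHP1 (-0.68), FLM (-0.60) and PIF4 (-0.57). Upward differences were found in PGAZAT (5.96), the chloroplast gene ATCG01100 (2.33), GLYI7 (2.24), AT2G21220 (2.18), HTA11 (0.68) and HTA9 (0.46).

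Between EIN2 backgrounds, the effect with EIN2 was the more negative in AT5G35935 (-6.61), AT1G66100 (-5.48), ESP (-2.31), LHCB2.3 (-2.0) and PIF4 (-0.70). It was the more positive in AT3G05170 (4.61) and HSP17.6II (3.52). Each of these genes was named in the account above, and genes outside it were not searched for this purpose.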

How the results depend on the processing

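No value of the 154 genes with a tested difference, recomputed 1989 times in all under other settings, turned its direction with a call, and no count over all genes moved by over 1.5 times. Without single libraries, 2358 to 2447 genes were called higher and 1974 to 2056 lower, and 392 to 415 and 135 to 163 by at least 1 log2 unit. Under the other scaling, filters, length correction, tests and choices of libraries these counts were 2972 to 3238, 2481 to 3021, 404 to 461 and 142 to 170. The lone library left in a group was assumed to vary like the others.

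A replicate block gave 3133 genes higher and 2726 lower, and among the genes named it ended the call of RVE1 alone (0.25, adjusted p 0.0542 in edgeR's test). RVE1 also lost it with no filter on low counts (adjusted p 0.0859), with ribosomal RNA region and organelle genes left out (0.0641) and without each of the 4 libraries (0.0589 to 0.332). The replicate numbers are not shown to pair the libraries. DESeq2's test did not call VRN5 (0.26), CRU2 (5.30) or AT2G05660 (-10.34). With the length trend removed, ABI3 (0.45), EIN3 (0.15) and CAB1 (-0.06) were called. Without single libraries, 23 genes lost their call in at least 1 fit, all with the same direction, and AT5G55410, ABI3 and TT8 gained one. Counts of list members moved by over 1.5 times without single libraries for polycomb (4 higher, 1 to 2), clock (4 higher, 1) and ethylene genes (2 higher, 1). They also moved so for heat (2 lower, 0), flowering time (3 lower, 1) and abscisic acid genes (5 lower, 3). Counts of 0 or 1 in the meristem, root hair and polycomb lists moved by 1. The causes were not tested. The comparisons at 21 °C and in the ein2 background and the counts of list members were added to the alternatives after the data were seen. With 2 libraries per group, small changes lay near the threshold.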
